A study of Mus musculus with 3 samples.

Results

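Helper T cells act on other cells largely through the cytokines they secrete, and the 10 cytokine genes described here are the ones by which helper subsets are usually told apart. They are Ifng and Tnf of Th1 cells, Il4, Il5 and Il13 of Th2 cells, the regulatory cytokine gene Il10, Il17a of Th17 cells, Il21 of follicular helper T cells, and the haematopoietic growth factor genes Il3 and Csf2. IL-2 was left out. The genes were taken by name, and every probe set that the platform annotation assigns to one of them alone was used. This gave 11 probe sets, 2 of them for Il21, of 45037 probe sets in all besides controls.

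The RNA came from memory phenotype CD4 T cells, helper cells with the phenotype of memory cells, which were sorted from the spleens of BALB/c mice. One group of mice ate a high fat diet (HFD), with fat giving 60 kcal%, and the other a normal diet (ND), in both cases over 10 weeks, and strain, tissue and cell type were shared. The HFD group held 2 arrays and the ND group 1. Neither the age and sex of the mice, nor pooling, nor any stimulation of the sorted cells is given in the labels used here, so the p-values rest on sample-to-sample spread that could be technical.

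In resting memory cells cytokine genes are held open by the lineage factors of each subset and are transcribed on T cell receptor signalling, when the calcium-dependent factor NFAT and the AP-1 dimers of Fos and Jun proteins reach their promoters. The transcripts are short-lived, because RNA-binding proteins recognise AU-rich stretches in them. A transcript level in sorted cells therefore reflects both recent transcription and decay, and is not a measure of secreted protein.

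Promoters of 5 genes whose transcripts differed between the diets are shown because their differences went both ways, lower for Ifng, Il4 and Il21 and higher for Il3 and Tnf. Each run is the 250 bases before the gene's start in RefSeq (GRCm38.p6), read 5′ to 3′ on the gene's strand. Capitals mark the NFAT core GGAAA on either strand (TTTCC on the other) and would also mark the AP-1 sequence TGANTCA.
Ifng: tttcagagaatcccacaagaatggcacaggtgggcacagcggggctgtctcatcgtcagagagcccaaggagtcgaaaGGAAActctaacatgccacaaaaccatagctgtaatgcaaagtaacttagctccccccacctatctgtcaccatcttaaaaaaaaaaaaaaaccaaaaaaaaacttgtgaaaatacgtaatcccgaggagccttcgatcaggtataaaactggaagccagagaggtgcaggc
Il4: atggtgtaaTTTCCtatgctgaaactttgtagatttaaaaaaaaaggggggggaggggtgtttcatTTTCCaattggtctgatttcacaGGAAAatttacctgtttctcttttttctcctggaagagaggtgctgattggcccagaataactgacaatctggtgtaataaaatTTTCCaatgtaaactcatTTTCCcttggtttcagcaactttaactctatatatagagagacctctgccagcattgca
Il21: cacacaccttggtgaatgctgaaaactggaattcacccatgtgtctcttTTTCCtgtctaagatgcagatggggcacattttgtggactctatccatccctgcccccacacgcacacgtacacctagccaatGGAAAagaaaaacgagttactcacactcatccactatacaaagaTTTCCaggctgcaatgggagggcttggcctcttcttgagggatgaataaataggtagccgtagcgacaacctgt
Il3: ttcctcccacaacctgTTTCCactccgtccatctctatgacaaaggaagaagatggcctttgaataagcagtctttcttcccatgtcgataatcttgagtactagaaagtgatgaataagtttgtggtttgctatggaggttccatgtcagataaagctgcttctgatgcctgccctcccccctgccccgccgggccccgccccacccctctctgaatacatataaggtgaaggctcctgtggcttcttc
Tnf: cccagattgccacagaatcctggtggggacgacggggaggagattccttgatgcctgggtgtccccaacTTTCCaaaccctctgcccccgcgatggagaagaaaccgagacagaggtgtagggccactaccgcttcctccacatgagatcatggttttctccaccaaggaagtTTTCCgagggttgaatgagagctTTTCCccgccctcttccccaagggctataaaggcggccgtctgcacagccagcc
They lie at chr10:118440796-118441045, plus strand for Ifng, chr11:53618666-53618915, minus strand for Il4, chr3:37232637-37232886, minus strand for Il21, chr11:54267280-54267529, minus strand for Il3 and chr17:35202008-35202257, minus strand for Tnf. For Il4, which has 2 starts in the table, the outermost was taken.

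The Il4 window held 5 NFAT cores, those of Il21 and Tnf 3 each, and those of Ifng and Il3 1 each. None of the 5 windows held TGANTCA. Of 32851 windows of the same length in the table, 55.6% held at least 1 NFAT core, 21.4% held 2 or more, and 6.7% held TGANTCA. No link between the number of cores and the direction of a change was tested. The table matched 9 of the 10 genes, all but Il10. Csf2 and Il5 had 2 cores each, Il13 had 4, and Il17a had 0 cores and 1 TGANTCA. A match is a description of letters, not evidence of binding.

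Of the 10 cytokine genes, 4 were lower in HFD cells (Il10, Il4, Ifng and Il21), 2 were higher (Il3 and Tnf), 2 did not pass the test (Il17a and Csf2), and Il5 and Il13 were too dim to be tested. The fit was limma on log2(intensity + 17.65), two-sided, over the 22518 probe sets whose mean over the 3 arrays was above 71.4, with a call at a Benjamini-Hochberg adjusted p under 0.05. Of all probe sets tested, 17.0% were called higher and 24.4% lower in HFD, so calls were common across the array. Of the 11 cytokine probe sets, 8 passed the filter. Il3 passed through its HFD values alone, so the count of calls supports nothing by itself. The median log2 difference of the 8 was -0.80, against -0.16 for all probe sets tested, or -0.63 relative to it. Of the 11 probe sets, 6 had both HFD values below ND and 4 had both above it. These counts include probe sets under the filter, the second of Il21 below ND and those of Il5 and Il13 above it. Over all probe sets tested, which had passed the filter, the shares were 54.9% and 33.9%. The median size of the difference without its sign was 1.24 for the cytokines and 0.41 for all probe sets tested.

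**Figure D1:**
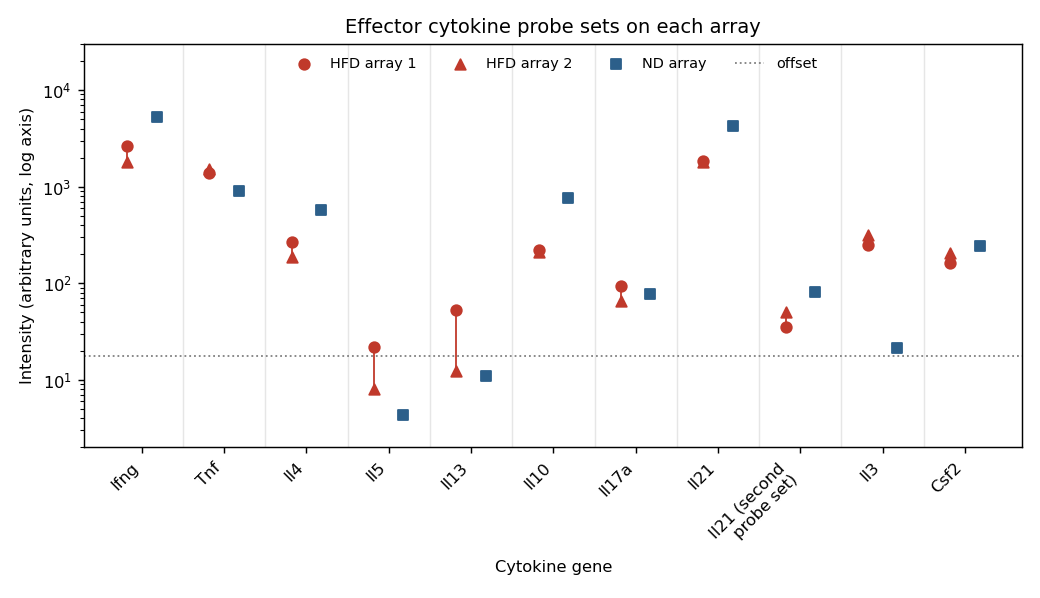
Deposited intensity (arbitrary units, log axis) of each cytokine probe set on the HFD arrays (circle and triangle, joined) and the ND array (square), with the offset of 17.65 as a dotted line. Both HFD values lie below ND for Ifng, Il4, Il10, Csf2 and both Il21 probe sets, and above it for Tnf, Il3, Il5 and Il13.

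With 1 ND array the spread comes from the HFD arrays alone, and the fit takes the ND array to have the same spread. Diet and any handling particular to the ND sample cannot be told apart. In a bulk sample, fewer cells of a type and less RNA per cell cannot be told apart. All 8 measured CD4 T cell markers (Cd3d, Cd3e, Cd3g, Cd4, Cd5, Cd28, Thy1 and Cd44) read 377 or more on every array. The reading of 377 was that of Cd4 on HFD array 2, where the CD8 T cell gene Cd8b1 read 485 and the B cell gene Ms4a1 1837. The summed level of the 8 markers was 74206 and 70497 in HFD against 89280 in ND. Over all 10341 genes tested by their brightest probe set 27.1% were called lower, and of the 8 markers 6 fell. Among these, Cd4 fell the most, at 609 and 377 in HFD against 911 in ND (log2 -0.90, adjusted p = 0.0083 in limma, but 0.118 with no filter and 0.100 without a variance trend), while Cd5 had a log2 difference of 0.08.

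Ifng encodes interferon gamma, the defining Th1 cytokine, which activates macrophages. Its probe set read 2622 and 1795 on the HFD arrays, against 5285 on the ND array. Both HFD values were below ND, and they differed from each other by a log2 of 0.54, more than for 93.6% of probe sets tested. The log2 difference was -1.28 (SE 0.18, 95% interval -1.66 to -0.90, adjusted p = 0.00014 in limma), a 2.42-fold fall on the offset scale.

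Tnf, which encodes the inflammatory cytokine TNF of T cells and macrophages, moved the other way. It read 1387 and 1523 in HFD, against 904 in ND, with both HFD arrays above ND and close to each other. In limma the log2 difference was 0.67 (SE 0.14, interval 0.37 to 0.98, adjusted p = 0.0025), a 1.60-fold rise. Taken within each array on the deposited values, where a factor common to the array drops out, the log2 ratio of Tnf to Ifng was higher than in ND by 1.63 on HFD array 1 and by 2.31 on HFD array 2.

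Il4 encodes the cytokine that drives Th2 differentiation and immunoglobulin class switching in B cells. It read 268 and 185 in HFD, against 578 in ND. Both HFD arrays lay below ND, and array 1 was the higher of the pair, as for Ifng. HFD differed from ND by a log2 of -1.31 (SE 0.23, interval -1.81 to -0.81, adjusted p = 0.00079 in limma), a 2.47-fold fall. On the deposited values, the log2 ratio of Ifng to Il4 within an array was above ND by 0.10 on HFD array 1 and by 0.08 on HFD array 2, a difference that was not tested.

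The other Th2 cytokine genes were dim. Il5, which encodes a growth factor for eosinophils, read 22.0 and 7.97 in HFD, against 4.35 in ND, all near or below the offset. Il13, whose product shares a receptor chain with IL-4 and acts on epithelium, read 53.0 and 12.2 in HFD, against 11.0 in ND, so its difference rested on HFD array 1. Neither passed the filter. In a limma fit with no filter their log2 differences were 0.53 (interval -0.46 to 1.53, adjusted p = 0.472) and 0.68 (interval -0.86 to 2.22, adjusted p = 0.558), wide enough to hold changes in either direction. No detection calls were used, so values this low cannot be told from background.

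Il10 encodes the cytokine that restrains macrophages, dendritic cells and T cells, and fell the most of the 10. It read 218 and 210.1 in HFD, against 772 in ND, with the HFD arrays nearly equal and far below ND. This gave a log2 difference of -1.77 (SE 0.19, interval -2.18 to -1.35, adjusted p = 2e-05 in limma), a 3.40-fold fall, and 0.15% of probe sets tested had a more negative one. Il10 fell further than Il4 on both HFD arrays, their log2 ratio on the deposited values being -0.71 relative to ND on array 1 and -0.24 on array 2.

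Macrophages and dendritic cells also make Il10, and the sums of their markers moved in the same direction. Of other myeloid markers, the neutrophil genes S100a8 (log2 2.44) and S100a9 (2.88) rose, but both passed the filter through their HFD values alone. The sum of the 4 B cell markers also rose, at 1880 and 2062 in HFD against 347 in ND, carried by Ms4a1. Over all 10341 genes tested by their brightest probe set, 27.1% were called lower. The 6 macrophage and monocyte markers summed to 770 and 945 in HFD against 2030 in ND, with 3 of the 4 tested called lower. The 5 dendritic cell markers summed to 699 and 765 in HFD against 1568 in ND, with 3 of the 4 tested called lower. Of these 3, Flt3 (71.3 and 62.1 in HFD, 188 in ND) passed the filter through its ND value alone. No marker on either list lay under the offset on all arrays. Their part in the Il10 result was not tested.

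Il21, the follicular helper cytokine gene whose product helps B cells form germinal centres, was measured by a pair of probe sets. The brighter read 1844 and 1786 in HFD, against 4212 in ND. The HFD arrays lay close together and well below ND. Its log2 difference was -1.21 (SE 0.12, interval -1.46 to -0.95, adjusted p = 9.6e-06 in limma), a 2.31-fold fall. The second read 34.9 and 50.2 in HFD, against 81.5 in ND, the same direction at a level under the filter.

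Il17a, the signature gene of Th17 cells, whose product recruits neutrophils through epithelial cells, showed no call. It read 92.8 and 66.2 in HFD, against 76.8 in ND, so that ND lay between the HFD arrays. The log2 difference was 0.03 (SE 0.37, interval -0.77 to 0.83, adjusted p = 0.961 in limma), positive on HFD array 1 (0.23) and negative on HFD array 2 (-0.17). Its mean of 78.6 was not far above the filter, and the interval reaches changes of over 1.5-fold either way.

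Il3 and Csf2 are neighbouring genes whose products, IL-3 and GM-CSF, promote the growth of basophils, mast cells and myeloid cells. Il3 read 251 and 313 in HFD, against 21.2 in ND. Both HFD values were above ND by far more than they differed from each other. The log2 difference was 2.94 (SE 0.28, interval 2.32 to 3.56, adjusted p = 8.3e-06 in limma), and it rose in each fit that tested it. The ND reading lies in the range that cannot be told from background, so the size of the rise is not exact and no fold is given. It depends on the offset, at a log2 of 1.93 with the offset at 71.5 and of 3.67 with an offset of 1.

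Csf2 was not called. It read 161 and 205 in HFD, against 244 in ND, with both HFD arrays a little below ND. Its log2 difference was -0.39 (SE 0.24, interval -0.91 to 0.13, adjusted p = 0.216 in limma). HFD array 1 read 0.80 times array 2 for Il3, 0.79 times for Csf2 and 0.91 times for Tnf. It read 1.46 times array 2 for Ifng and 1.45 times for Il4. A single pair of arrays cannot show whether genes vary together.

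**Figure D2:**
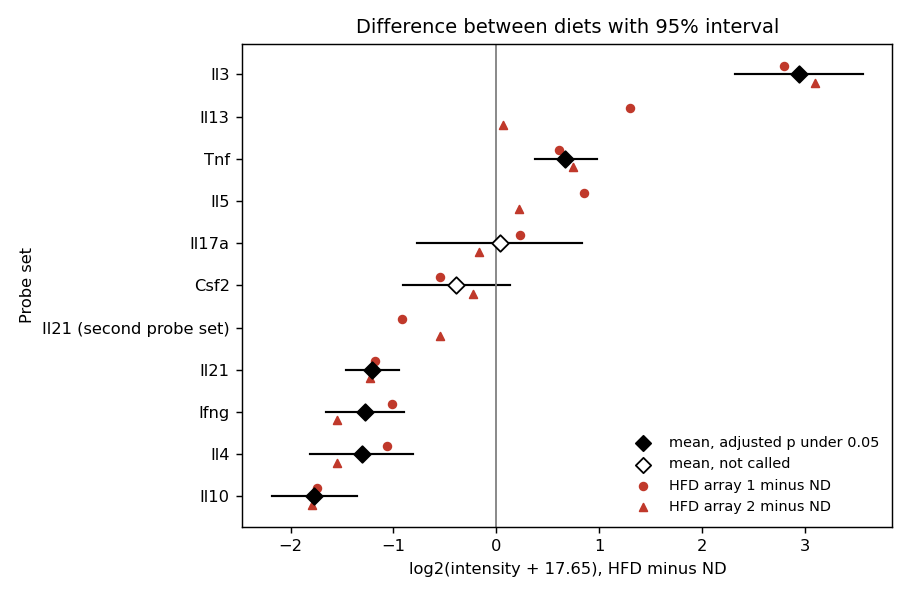
Log2 differences on the log2(intensity + 17.65) scale, HFD minus ND, for each probe set, with HFD array 1 (circle) and HFD array 2 (triangle) apart and, where tested, the mean (diamond, filled at an adjusted p under 0.05) with its 95% interval from limma. The intervals of Il10, Il4, Ifng and Il21 lie below 0, those of Tnf and Il3 above it, and those of Csf2 and Il17a include it.

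Set against Cd4 within each array on the deposited values, the 4 cytokines that fell differed less from ND. The log2 ratio to Cd4 relative to ND was -0.43 and -0.29 for Ifng on HFD arrays 1 and 2, and -0.53 and -0.37 for Il4. It was -1.24 and -0.60 for Il10, and -0.61 and 0.03 for Il21, which on array 2 was thus level with Cd4. These ratios were not tested. Cd4 fell the most of the CD4 T cell markers, at a log2 of -0.90, and its other probe set was at -0.61. A ratio to it therefore shrinks any fall. The other markers ranged from -0.78 (Cd44) to 0.08 (Cd5), with Cd3d at -0.22, and no ratio to them was taken.

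By size alone, 4 cytokine probe sets fell at least 2-fold short of ND on each HFD array, and 1, that of Il3, exceeded ND at least 2-fold on each. Over all probe sets tested the shares were 2.47% and 5.27%. Ifng was near this bound, at 2.01-fold lower on HFD array 1. The cytokines varied more between the HFD arrays than most transcripts, with a median log2 gap of 0.310 against 0.142 over all probe sets tested. Il10 and the brighter Il21 probe set had gaps of 0.05 each, and the second Il21 probe set 0.37, while Il13 had the largest of the 11 at 1.24.

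**Figure D3:**
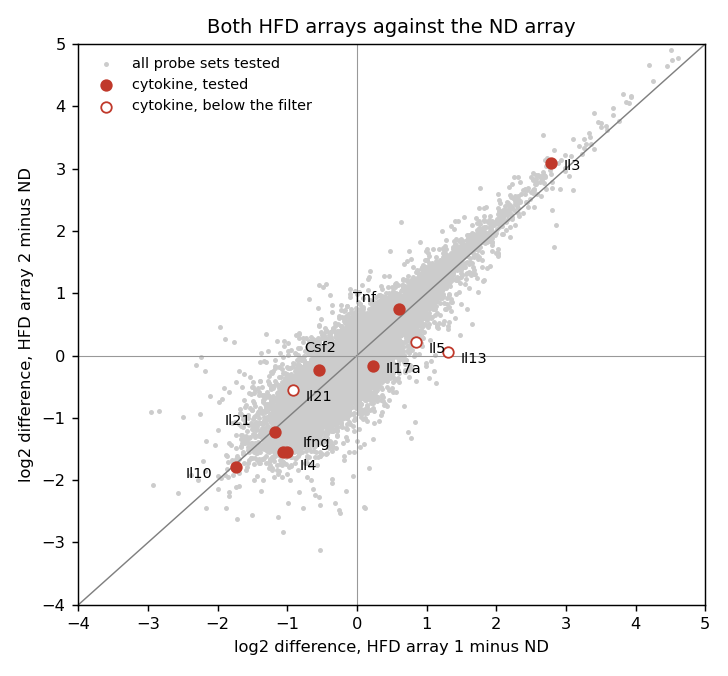
Log2 difference to ND on HFD array 2 against that on HFD array 1, for all 22518 probe sets tested (grey), the cytokine probe sets tested (red) and those under the filter (open). Il10 and the brighter Il21 probe set lie near the line of equality, Ifng and Il4 lie below it and nearly on each other, and Il13 lies far to its right.

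Several of these genes sit in cytokine clusters, and their neighbours did not all move with them. Beside Tnf, the lymphotoxin gene Lta read 1536 and 1621 in HFD, against 657 in ND (log2 1.24, adjusted p = 3.1e-05 in limma), and so rose with Tnf. Ltb, the partner gene on the other side, read 18385 and 18826 in HFD, against 24407 in ND (log2 -0.39, adjusted p = 0.00076, but 0.090 with arrays centred on their medians). Beside Il21, the gene of the T cell growth factor IL-2 read 8985 and 10234 in HFD, against 687 in ND (log2 3.77, adjusted p = 1.4e-09). On the deposited values the log2 ratio of Il2 to Il21 was above ND by 4.90 and 5.13 on the HFD arrays.

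In the cluster that holds Il4, Il13, Il5, Csf2 and Il3, the DNA repair gene Rad50, which lies between Il13 and Il5, had a log2 difference of -0.11 (adjusted p = 0.564). Kif3a (0.14) and Slc22a5 (-0.33) were not called either. Irf1, a transcription factor induced by interferons, fell (log2 -0.40, adjusted p = 0.0068), and so did Pdlim4 (log2 -0.71, adjusted p = 0.025). Both calls ended with arrays centred on their medians, at adjusted p = 0.114 for Irf1 and 0.058 for Pdlim4. Acsl6, next to Il3, read 72.7 and 84.2 in HFD, against 4.41 in ND, which left it under the filter, and the limma fit with no filter called it higher (log2 2.12, adjusted p = 0.038). P4ha2 read 13.2 and 21.8 in HFD against 17.4 in ND. Of the neighbours of the remaining genes, Bbs12 near Il21 rose (log2 0.57, adjusted p = 0.020, but 0.074 with no filter and 0.057 without a variance trend), while Cetn4 (0.31), Mdm1 near Ifng (0.07) and Mapkapk2 near Il10 (-0.23) were not called. Il24, near Il10, was under the filter at 59.0 and 56.1 in HFD against 81.8 in ND.

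Of 25 other cytokine genes of T cells, 15 were tested by their brightest probe set, of which 1 rose, 6 fell and 8 were not called, with a median log2 difference of -0.27 (-0.11 relative to all probe sets). Among all 10341 genes so tested, 19.6% were called higher and 27.1% lower. Besides Lta, the largest changes were those of Csf1, the macrophage growth factor (277 and 273 in HFD, 655 in ND, log2 -1.20, adjusted p = 0.0003, its other probe set at -0.43), and of Tnfsf10, which encodes the death ligand TRAIL (701 and 649 in HFD, 1230.0 in ND, log2 -0.85, adjusted p = 0.00095).

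Of 18 receptor genes for the 10 cytokines, 13 were tested. Of these, 7 fell and 0 rose (5 and 1 under quantile normalization or with arrays centred on their medians). Over all 10341 genes so tested, the shares called lower and higher were 27.1% and 19.6%. The receptors had a median log2 difference of -0.49 (-0.32 relative to all probe sets). The 3 largest falls were in receptors for IL-3 and GM-CSF. Csf2rb2, the IL-3-specific beta chain of mice, read 185 and 199 in HFD, against 485 in ND (log2 -1.26, adjusted p = 0.00047 in limma). Csf2rb, the beta chain shared by IL-3, IL-5 and GM-CSF, read 228 and 289 in HFD, against 561 in ND (log2 -1.08, adjusted p = 0.0013). These paralogs are similar in sequence, so their probe sets may not be fully separate. Il3ra, the IL-3 alpha chain, read 85.8 and 54.1 in HFD, against 152 in ND (log2 -0.97, adjusted p = 0.044, and 0.052 to 0.207 under 5 of the alternative settings). The HFD mean of Il3ra, 69.9, lay under the filter, so its ND value carried it over. The count of 7 falls includes Il3ra, whose call supports nothing by itself. Myeloid cells express these chains too, and the macrophage and dendritic cell markers given above fell with them, a part that was not tested. The receptor genes Ifngr1 (log2 -0.10), Ifngr2 (0.39) and Il4ra (0.37) were not called.

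Of 40 transcription regulators of cytokine genes, 36 were tested. Of these, 26 fell and 4 rose, against shares of 27.1% lower and 19.6% higher over all 10341 genes so tested. The regulators had a median log2 difference of -0.47 (-0.30 relative to all probe sets). The count of falls was 17 with arrays centred on their medians and 13 without a trend in the variance. The largest change was a rise of Irf4, an activation-induced factor needed by several helper subsets, which read 5483 and 6613 in HFD against 910.2 in ND (log2 2.70, adjusted p = 3.4e-08 in limma, its other probe set at 1.08). Nfil3 read 267 and 204 in HFD against 933 in ND (log2 -1.92, adjusted p = 1.8e-05). Jun, an AP-1 subunit, read 2055 and 1555 in HFD against 4818 in ND (log2 -1.42, adjusted p = 2.1e-05).

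The lineage factors Tbx21, Gata3, Maf and Bcl6, picked for their textbook roles with values known, also fell. Besides Irf4, the regulators that rose were Rel (log2 0.98, adjusted p = 0.00045 in limma), Stat5a (0.61, adjusted p = 0.0056) and Satb1 (0.55, adjusted p = 0.0012). The other tested probe sets of Satb1 lay between -0.01 and 0.56. Some regulators on the list were not called. Among these were Eomes (log2 0.46, adjusted p = 0.059 in limma, its other probe set at 1.43), Stat6 (0.06) and Runx3 (-0.17). Tbx21, the Th1 factor that opens Ifng, read 1344 and 1102 in HFD against 1882 in ND (log2 -0.62, adjusted p = 0.0060, but 0.058 with no filter and 0.075 without a variance trend). Gata3, which does the same for Il4, Il5 and Il13, read 1432 and 1268 in HFD against 2764 in ND (log2 -1.03, adjusted p = 9.7e-05). Maf, which acts on Il4, Il10 and Il21, read 5980.3 and 5418 in HFD against 10552 in ND (log2 -0.89, adjusted p = 2.3e-05). Bcl6, the follicular helper factor, read 783 and 797 in HFD against 1990.0 in ND (log2 -1.31, adjusted p = 2.2e-05).

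Of 19 genes listed for cytokine mRNA decay, 18 were tested. Of these, 2 rose and 7 fell, against shares of 19.6% higher and 27.1% lower over all 10341 genes so tested. The listed genes had a median log2 difference of -0.25 (-0.08 relative to all probe sets). Zfp36, which encodes tristetraprolin, a protein that binds AU-rich elements and speeds decay of Tnf mRNA, read 2198 and 1758 in HFD against 4143 in ND (log2 -1.07, adjusted p = 1e-04 in limma). Pdcd4, on the list although it encodes an inhibitor of translation, read 6801 and 6406 in HFD against 10992 in ND (log2 -0.73, adjusted p = 5.8e-05). Elavl1, which encodes the stabilising protein HuR, read 5065 and 5510.1 in HFD against 3327 in ND (log2 0.66, adjusted p = 0.00039), with its other probe sets between -0.36 and 0.74.

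**Figure D4:**
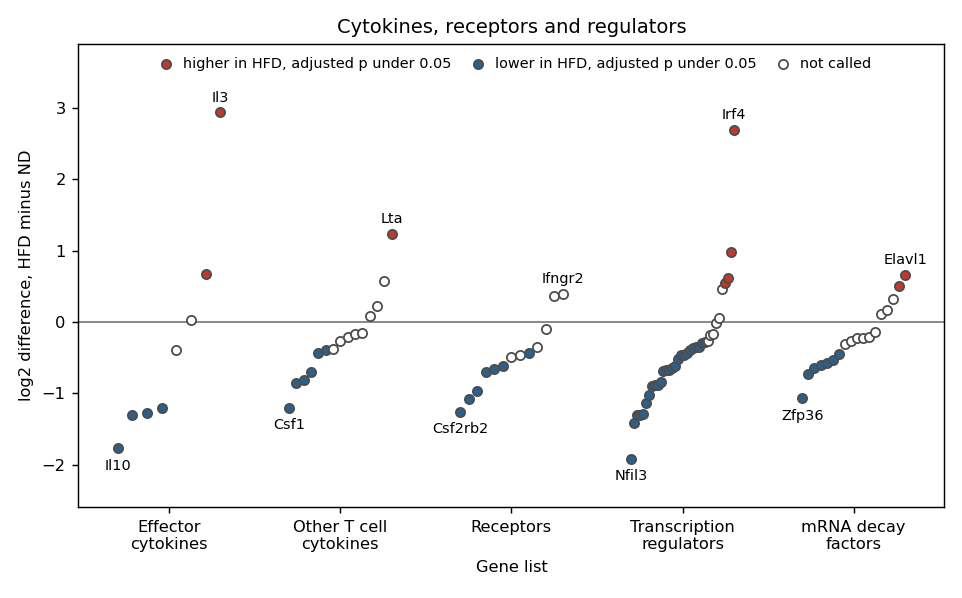
Log2 difference, HFD minus ND, of each tested gene by its brightest probe set, in 5 lists, coloured where the adjusted p was under 0.05. The receptor list has 0 genes called higher and 7 lower (1 and 5 with arrays centred on their medians), and in every other list at least 1 gene was called in each direction. Over all 10341 genes so tested, 19.6% were called higher and 27.1% lower.

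Markers of other cells that can make these cytokines were also read. Over all 10341 genes tested by their brightest probe set, 27.1% were called lower and 19.6% higher. The 4 NK and NKT cell markers measured, sources of Ifng and Il4, summed to 1357 and 1300 in HFD, against 1936 in ND, mostly from Klrk1. Of the 3 tested, Klrk1 (log2 -0.58, adjusted p = 0.0077 in limma, but 0.061 without a variance trend) and Zbtb16, the NKT factor PLZF (154 and 168 in HFD, 349 in ND, log2 -1.04, adjusted p = 0.0030), fell. Klre1 was not called (log2 0.17), and Ncr1 read 66.9 and 82.8 in HFD against 46.2 in ND, without a test. The 6 mast cell and basophil markers, also sources of Il4 and Il13, summed to 336 and 371 in HFD, against 407 in ND, of which 2 were tested and 1, Kit, fell (127 and 133 in HFD, 221 in ND, log2 -0.69, adjusted p = 0.046, but 0.109 to 0.178 with arrays centred, under quantile normalization or with no filter). The basophil protease gene Mcpt8 was dim, at 11.6 and 37.5 in HFD and 1.02 in ND. The 4 markers listed for type 2 innate lymphoid cells (Gata3, Rora, Klrg1 and Il17rb), which T cells share, summed to 3753 and 3215 in HFD, against 7173 in ND, and all fell.

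Some markers went the other way. The 4 B cell markers summed to 1880.0 and 2062 in HFD, against 347 in ND, carried by Ms4a1 (1612 and 1837 in HFD, 56.8 in ND), while Cd79b read 190 and 168 in HFD against 219 in ND. The 3 neutrophil markers summed to 442 and 496 in HFD against 59.7 in ND, with S100a8 and S100a9 called higher and Elane under the offset on all arrays. S100a8 (40.9 in ND), S100a9 (5.85) and Ms4a1 (56.8) passed the filter through their HFD values alone. Their calls as higher support nothing by themselves. The pair of CD8 T cell markers summed to 581 and 715 in HFD, against 449 in ND. Cd8a was called higher (log2 0.91, adjusted p = 0.016 in limma, its other tested probe sets between -0.28 and 0.78), and Cd8b1 was not called (0.32). The 3 erythroid and platelet markers were untested and read 39.4 or less on every array, a level that cannot be told from background, with Ppbp under the offset throughout. The part of these cells in the cytokine values was not tested.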

How the data were processed

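Values were read as deposited by the authors, a linear intensity per probe set on 3 Affymetrix arrays. Total RNA was biotin-labelled with an Affymetrix kit, per the labels' protocols. The submitters' processing notes name GCOS, Affymetrix's array software, and its algorithm and version were not given in the sources used here. Every array has a mean of 500.0 once 2% of its probe sets are trimmed at each end, so a change in bright transcripts shifts all others on that array. Precision is limited by the number of arrays.

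Besides 64 controls there were 45037 probe sets, 34945 with 1 gene symbol, 932 with several and 9160 with none. Symbols were checked by Entrez identifier against RefSeq (GRCm38.p6), where 34741 matched and 0 changed. The analysis used log2(intensity + 17.65), with the 25th percentile of the values as offset, and a filter at a mean above 71.4, the median of the probe set means. Diets were compared on every probe set with limma 3.58.1 (lmFit, eBayes with a trend) in R 4.3.3, with 1 residual and 11.15 prior degrees of freedom, and the model was tested on simulated data. Fold changes on this scale understate changes of dim genes. An exact permutation test of 2 arrays against 1 cannot reach a p under 0.05 and was not used. Motifs were searched in the RefSeq promoter table with Python 3.11.15 and pandas 2.3.3, with numpy 2.4.6 for arithmetic and matplotlib 3.10.9 for figures.

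The members and gene lists were chosen with earlier results of these data known. All 10 members were named, with up to 3 called genes of largest difference from each other list and all measured neighbours. Lineage factors, some regulators that rose or were not called, 3 receptor genes that were not called and other cell markers were named besides, with values known. Lists count genes by their brightest probe set. Alternatives covered normalization, offset, filter, probe sets, variance model, threshold and leaving out each HFD array.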

Additional observations from a re-analysis of the deposited data

How the results depend on the processing

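The 6 cytokine calls kept their direction and their side of the threshold in each alternative fit that could test them. Their adjusted p-values reached at most 0.041 for Ifng, 0.017 for Il10, 0.023 for Il21, 0.016 for Il3, 0.037 for Il4 and 0.047 for Tnf, and those of Csf2 and Il17a stayed at 0.195 or more. A filter at the 75th percentile left 1 cytokine called higher and 2 lower, since only Ifng, Il21 and Tnf then entered. Without either HFD array in turn no test was possible. The rule of size requires both arrays, so its counts can then only stay or grow, and they were again 4 lower and 1 higher. Il17a took a log2 difference of -0.17 without HFD replicate 1 and 0.23 without replicate 2. Receptor genes called higher numbered 1 under quantile normalization and 1 with arrays centred, and 2 were at least 2-fold lower with either HFD array alone (1 with both). Transcription regulators called lower numbered 17 with arrays centred and 13 without a variance trend. At least 2-fold from ND, 6 to 8 were lower and 1 to 2 higher with 1 HFD array (5 and 1 with both). Decay factors called higher numbered 4 with arrays centred and 1 without a variance trend, called lower 4 without it, and 0 to 1 were at least 2-fold lower with 1 HFD array. Rad50 took a log2 difference of 0.04 with arrays centred. The cause of these changes was not tested. Over all probe sets 9305 were called, but 5294 with no filter, 5376 without a variance trend and 6023 at an adjusted p under 0.01, and 41.0% of calls were higher in HFD, against 56.9% with arrays centred. No paired analysis was possible because the ND group has 1 array.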
